A study of Mus musculus with 16 samples.

Results

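The genes of MHC class II antigen presentation were examined in mouse liver with and without repeated CCl4 injury, in wild type (WT) mice and in mice lacking lipocalin 2 (Lcn2-/-). The set held 9 genes, taken by their names on the array. They were the I-A chain genes H2-Aa and H2-Ab1, the I-E beta chain gene H2-Eb1, the DM chain genes H2-DMa and H2-DMb1, the DO chain genes H2-Oa and H2-Ob, the invariant chain gene Cd74 and the class II transactivator gene Ciita. All 9 were on the array and passed the filter on dim probes, among 24319 genes tested. RNA came from whole livers of male BALB/c mice that were 6 to 8 weeks old when treatment began. The controls were 4 WT and 3 Lcn2-/- livers, and 5 WT and 4 Lcn2-/- livers came from mice given CCl4. CCl4 was injected into the peritoneum in corn oil at 0.5 ml/kg, 2 times a week for 4 weeks, with sampling 48 h after the final injection; controls had corn oil without CCl4. The deletion was constitutive, not limited to 1 cell type, and was made in a mixed 129/Ola and C57BL/6 background before backcrossing to BALB/c.

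MHC class II molecules are heterodimers of an alpha and a beta chain that carry peptides from ingested proteins to the surface of dendritic cells, macrophages and B cells, where CD4 T cells read them. New heterodimers are held by the invariant chain, whose remnant is exchanged for peptide with the help of DM, and DO restrains DM. Transcription of most of these genes depends at least in part on the class II transactivator, which interferon gamma induces in many cell types. In the liver the known class II positive cells are dendritic cells, B cells, Kupffer cells and infiltrating macrophages, and sinusoidal endothelial cells carry lower amounts.

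Each liver was hybridised to 1 single-colour array, and a level is the log2 of the normalised spot signal. Levels of different genes come from different probes and are not set against each other. Between 51.6% and 60.9% of gene spots on an array were well above background. The probe for Lcn2 gave levels of 13.80 to 17.57 on WT arrays and 10.46 to 12.25 on Lcn2-/- arrays, with no overlap. Both slides carried several groups, but not evenly: slide 1 held all 7 controls and WT CCl4 1, and slide 2 held the other 8 CCl4 arrays. Only WT CCl4 1 therefore sets CCl4 apart from slide. In whole liver RNA, more class II positive cells and more class II RNA per cell cannot be told apart. The labels number replicates without naming the animals, so the p-values measure the spread between these samples.

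The class II genes split the controls before any comparison of groups. WT control 3 and Lcn2-/- control 3 stood far above the other controls of their genotype, by a median of 3.44 and 4.34 log2 units over the 9 genes, while the median over all genes tested was -0.09 and -0.06. WT control 3 was the highest of the 16 arrays for 9 of 9 genes. Both arrays lay in the third column of slide 1. The comparisons of groups are therefore given with both arrays and without them. They were recognised from levels that include these genes, so the values without them show how much the comparison rests on 2 livers and are not an independent test of it.

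Class II genes are known for a shared promoter module, an X box followed by a Y box, and 6 of the 9 genes had a promoter in the RefSeq table used (GRCm38.p6, the C57BL/6J reference, not BALB/c). The 250 bases before the start were searched on both strands for the X box core ACNGATG and the Y box core ATTGG, which do not overlap each other. The Y core was found for 6 of 6 genes and in 33.8% of all 32851 promoters. Both cores on 1 strand with 15 to 30 bases between them were found for 2 of 6 genes, H2-DMb1 and H2-Eb1, and in 0.128% of all promoters. The 120 bases before the start are shown, 5′ to 3′ on the gene's strand, for these 2 genes and for H2-Aa and H2-Ob, which held the Y core alone in the stretch shown; capitals mark the cores on the strand shown, and a Y core on the other strand of H2-Eb1 is left in lower case. H2-DMb1 is chr17:34153071-34153190 on the plus strand, H2-Eb1 is chr17:34305747-34305866 on the plus strand, H2-Aa is chr17:34287824-34287943 on the minus strand and H2-Ob is chr17:34238785-34238904 on the plus strand.
H2-DMb1: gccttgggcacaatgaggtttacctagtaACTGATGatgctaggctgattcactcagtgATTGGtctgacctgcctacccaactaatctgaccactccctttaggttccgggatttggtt
H2-Eb1: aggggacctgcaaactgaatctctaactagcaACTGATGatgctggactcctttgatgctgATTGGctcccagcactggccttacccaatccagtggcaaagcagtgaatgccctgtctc
H2-Aa: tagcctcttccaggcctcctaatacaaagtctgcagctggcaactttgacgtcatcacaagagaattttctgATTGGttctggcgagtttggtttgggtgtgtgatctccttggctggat
H2-Ob: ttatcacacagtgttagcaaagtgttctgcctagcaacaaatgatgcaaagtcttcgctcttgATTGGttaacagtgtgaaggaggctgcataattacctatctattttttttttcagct

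In these stretches the X core of H2-DMb1 began 91 bases before the start with 23 bases to its Y core, and that of H2-Eb1 began 88 bases before the start with 22 bases between. The Y core began 61, 59, 48 and 57 bases before the start of H2-DMb1, H2-Eb1, H2-Aa and H2-Ob. H2-Oa held both cores on its own strand outside the allowed spacing, and 1 of the 2 listed promoters of H2-DMa held a Y core. Promoters of H2-Ab1, Cd74 and Ciita were not in the table. A match is a description of letters in the reference and not a measured site. The X core searched is a short string, so a promoter without a match is not shown to lack an X box.

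The I-A alpha chain gene H2-Aa (probe at chr17:34421285-34421344 on mm9) varied most among control livers. Its level was 7.70, 7.11, 12.56 and 10.14 in WT controls 1 to 4 and 6.96, 6.47 and 12.43 in Lcn2-/- controls 1 to 3. It was 9.74, 11.87, 10.57, 10.36 and 10.38 in WT CCl4 1 to 5 and 10.41, 9.87, 9.74 and 9.68 in Lcn2-/- CCl4 1 to 4. The lowest and the highest livers of the series were both controls, and the control groups spanned 43.8-fold in WT and 62.5-fold in Lcn2-/-, against 4.39-fold and 1.65-fold under CCl4. Group means were 9.38 ± 2.49 (SD, n = 4), 8.62 ± 3.31 (SD, n = 3), 10.58 ± 0.78 (SD, n = 5) and 9.92 ± 0.33 (SD, n = 4) in the order above.

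H2-Ab1, the I-A beta chain gene (probe at chr17:34406296-34406355 on mm9), had the same order of livers within the controls. It stood at 13.13, 13.07, 17.29 and 14.46 in WT controls and at 12.23, 11.89 and 16.91 in Lcn2-/- controls. Under CCl4 it stood at 13.97, 16.89, 15.96, 14.97 and 15.28 in WT and at 15.17, 14.81, 14.51 and 14.72 in Lcn2-/-. WT CCl4 2 was the highest CCl4 liver and WT CCl4 1, the single CCl4 array on slide 1, the lowest. H2-Eb1, the I-E beta chain gene (probe at chr17:34453075-34453134 on mm9), ranged from 13.63 to 17.65 in WT controls, 12.46 to 17.32 in Lcn2-/- controls, 14.42 to 17.14 in WT CCl4 and 14.69 to 15.48 in Lcn2-/- CCl4, with control 3 again on top in both genotypes.

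The partner of the I-E beta chain is made from H2-Ea, which is expressed in H2d strains such as BALB/c and is not expressed in H2b strains such as C57BL/6. H2-Ea was well above background on every array. Its level was 8.31, 8.16, 12.65 and 10.37 in WT controls and 6.63, 6.74 and 12.36 in Lcn2-/- controls. Under CCl4 it was 10.33, 12.11, 11.18, 10.67 and 11.32 in WT and 10.68, 10.01, 9.96 and 10.46 in Lcn2-/-. As for H2-Eb1, control 3 was the highest control in both genotypes and WT CCl4 2 the highest CCl4 liver. Of the other relatives listed, H2-DMb2 was well above background on 1 array and H2-Eb2 on 0, so neither was tested, and H2-Ea-ps had no probe of that name.

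**Figure D1:**
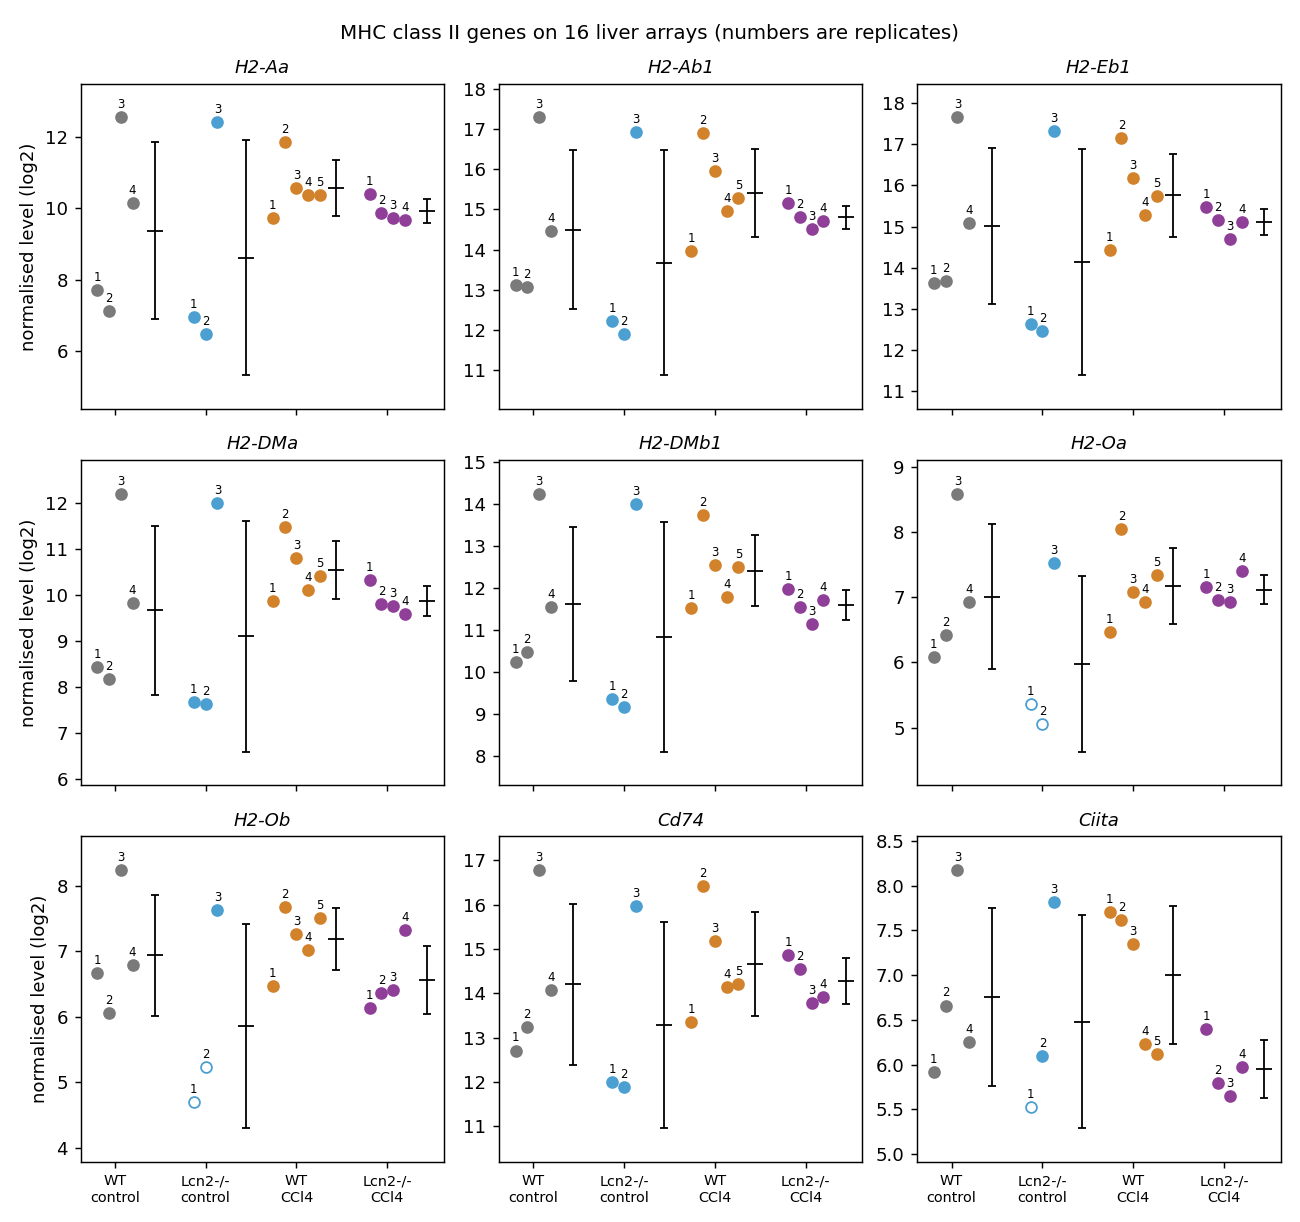
Normalised level (log2) of the 9 genes on each array, by group, with replicate numbers; bars give mean ± SD and open points were not well above background. Control 3 of both genotypes sits above the CCl4 livers of its genotype for every gene, and controls 1 and 2 sit below every CCl4 liver of their genotype for 7 of 9 genes in WT and 8 of 9 in Lcn2-/-.

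DM, the peptide exchange factor, followed the same livers. H2-DMa (probe at chr17:34274300-34274863 on mm9, spanning an intron) stood at 8.44, 8.18, 12.20 and 9.82 in WT controls and at 7.66, 7.64 and 11.99 in Lcn2-/- controls. Under CCl4 it stood at 9.87, 11.47, 10.80, 10.12 and 10.41 in WT and at 10.32, 9.80, 9.77 and 9.58 in Lcn2-/-. It was the single gene of the 9 for which WT controls 1, 2 and 4 all lay below every WT CCl4 liver. H2-DMb1 (probe at chr17:34297109-34297168 on mm9) ranged from 10.24 to 14.26, 9.16 to 14.00, 11.54 to 13.74 and 11.15 to 12.00 in control livers of WT and of Lcn2-/- and in CCl4 livers of WT and of Lcn2-/-, in that order.

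DO, the inhibitor of DM, is best known from B cells, and its genes gave dimmer spots. H2-Oa (probe at chr17:34232033-34232092 on mm9) stood at 6.09, 6.43, 8.59 and 6.93 in WT controls and at 5.36, 5.05 and 7.53 in Lcn2-/- controls, and Lcn2-/- controls 1 and 2 were not well above background. It ranged from 6.46 to 8.04 in WT CCl4 and from 6.93 to 7.41 in Lcn2-/- CCl4. H2-Ob (probe at chr17:34382790-34382849 on mm9) stood at 6.67, 6.06, 8.24 and 6.79 in WT controls and at 4.70, 5.24 and 7.62 in Lcn2-/- controls, with controls 1 and 2 of Lcn2-/- again not well above background. Under CCl4 it ranged from 6.47 to 7.67 in WT and from 6.14 to 7.32 in Lcn2-/-. A second H2-Ob probe was well above background on 4 arrays and correlated with the one used at r = 0.56 over 16 arrays, as a description, so H2-Ob is the least certain of the chain genes.

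Cd74 encodes the invariant chain. It stood at 12.71, 13.23, 16.78 and 14.08 in WT controls and at 12.00, 11.88 and 15.97 in Lcn2-/- controls. Under CCl4 it stood at 13.35, 16.41, 15.18, 14.14 and 14.22 in WT and at 14.86, 14.55, 13.77 and 13.91 in Lcn2-/-. WT CCl4 1 lay within the range of WT controls 1, 2 and 4.

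Ciita, the transactivator (probe at chr16:10526568-10526627 on mm9), followed the others least. Its level was 5.92, 6.66, 8.18 and 6.26 in WT controls and 5.53, 6.10 and 7.82 in Lcn2-/- controls, where control 1 was not well above background. It was 7.71, 7.62, 7.35, 6.23 and 6.12 in WT CCl4 and 6.40, 5.80, 5.65 and 5.97 in Lcn2-/- CCl4. WT CCl4 1, which was low for the other genes, was the highest CCl4 liver here. The Ciita probe lies in array row 4, and on Lcn2-/- control 3 the 6 negative control spots of rows 1 to 8 had a median scanner signal of 61.6 against 10.8 for the 302 others, a gap that no other array showed (highest median of these rows elsewhere 10.8). The Ciita spot itself read 223 there, and the part of that background in its value was not tested.

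**Figure D2:**
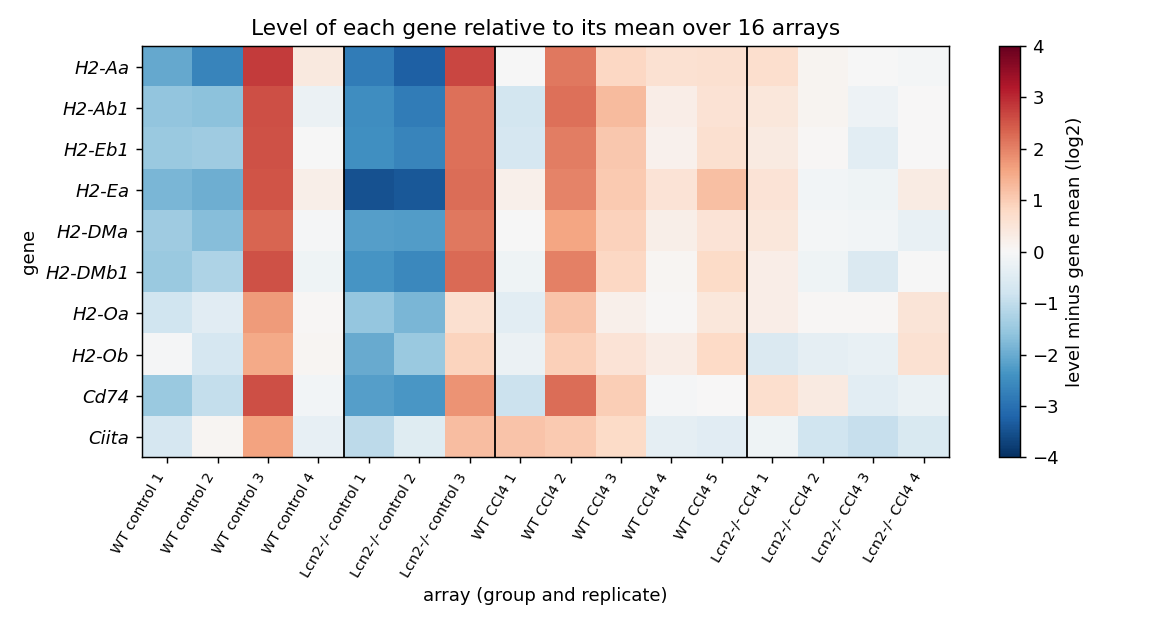
Level of each gene minus its mean over the 16 arrays (log2, colour), with H2-Ea beside the 9 genes; vertical lines part the groups. Columns WT control 3, Lcn2-/- control 3 and WT CCl4 2 are high and controls 1 and 2 of both genotypes low for most chain genes and Cd74, and the Ciita row departs from that order.

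The genes moved together from liver to liver inside groups. With each group's mean removed, the correlation of a gene with the mean of the other 8 over 16 arrays was 0.97 to 1.00 for H2-Aa, H2-Ab1, H2-Eb1, H2-DMa, H2-DMb1, H2-Oa and Cd74, 0.89 for H2-Ob and 0.76 for Ciita. Without WT control 3 and Lcn2-/- control 3 it was 0.92 to 0.99 for the first 7, 0.70 for H2-Ob and 0.45 for Ciita. These values describe arrays that share RNA quality, cell content and normalisation, and carry no test. The mean deviation of the 9 genes was 2.30 and 2.62 log2 units on WT control 3 and Lcn2-/- control 3, -1.34 to -1.13 on controls 1 and 2 of both genotypes, 0.00 on WT control 4, -0.80 to 1.12 in WT CCl4 and -0.29 to 0.30 in Lcn2-/- CCl4.

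The first question was whether repeated CCl4 raised the class II genes. With all 16 arrays, 0 of 9 genes passed the threshold in either genotype (limma, adjusted p below 0.05), where 16.7% of all genes passed in WT and 12.2% in Lcn2-/-. At an unadjusted p under 0.05 the count was also 0 of 9 in both. The difference between CCl4 and control was positive for 9 of 9 genes in WT, with a median of 0.75 and a range of 0.16 to 1.21, against a median of -0.03 over all genes. Single livers set this median: it was 0.29 without WT control 1, 0.30 without WT control 2, 0.40 without WT CCl4 2 and 1.63 without WT control 3, with 6, 7, 8 and 9 of 9 genes positive. In Lcn2-/- it was positive for 8 of 9 genes, with a median of 0.97 and a range of -0.53 for Ciita to 1.30 for H2-Aa, against -0.02 over all genes. There the median was 0.22 without Lcn2-/- control 1, 0.23 without Lcn2-/- control 2 and 2.33 without Lcn2-/- control 3. H2-Aa differed by 1.21 ± 1.18 (SE) in WT (limma adjusted p = 0.527) and 1.30 ± 1.34 (SE) in Lcn2-/- (limma adjusted p = 0.573). Cd74 differed by 0.46 ± 0.93 (SE) in WT (limma adjusted p = 0.786) and 0.99 ± 1.06 (SE) in Lcn2-/- (limma adjusted p = 0.591). Among controls the range exceeded each of these differences, and the groups overlapped for all 9 genes in both genotypes.

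Without WT control 3 and Lcn2-/- control 3 the same fit called most of the genes. In Lcn2-/- 8 of 9 genes rose, against 8.53% of all genes, and in WT 5 of 9 rose, against 11.3% of all genes. In Lcn2-/- H2-Aa rose by 3.21 ± 0.71 (SE), H2-Ab1 by 2.74 ± 0.63 (SE), H2-DMb1 by 2.34 ± 0.52 (SE), Cd74 by 2.33 ± 0.67 (SE), H2-Eb1 by 2.56 and H2-DMa by 2.22, with limma adjusted p-values from 0.00702 for H2-DMa to 0.0348 for Cd74. H2-Oa and H2-Ob were not well above background in either remaining Lcn2-/- control, so their rises are bounds: at least 3.04-fold for H2-Oa and at least 2.07-fold for H2-Ob (limma adjusted p 0.00324 and 0.0129), set against the dimmest signal well above background. Ciita differed by 0.14 ± 0.45 (SE) with a limma adjusted p of 0.875. In WT H2-Aa rose by 2.27 ± 0.60 (SE), H2-Ab1 by 1.86, H2-DMa by 1.72, H2-DMb1 by 1.66 and H2-Eb1 by 1.63, with limma adjusted p-values from 0.00764 for H2-DMa to 0.0365 for H2-Eb1. The WT differences of Cd74 (1.32), H2-Oa (0.69), H2-Ob (0.68) and Ciita (0.72) did not pass, with limma adjusted p-values of 0.122 to 0.202. H2-Ea also rose then, by 2.18 in WT and 3.59 in Lcn2-/-, with limma adjusted p-values of 0.00634 and 0.00128. For 8 of 9 genes both remaining Lcn2-/- controls lay below every Lcn2-/- CCl4 liver. In WT, controls 1 and 2 lay below every CCl4 liver for 7 of 9 genes. For 6 of those 7 genes control 4 lay among the CCl4 livers, and for H2-DMa it lay below them.

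Slide moved with these rises. WT CCl4 1, hybridised beside the controls, lay above WT controls 1, 2 and 4 for 2 of 9 genes, H2-DMa and Ciita. Its level minus their mean was 1.42 for H2-Aa, 1.05 for H2-DMa, 0.78 for H2-DMb1, 0.42 for H2-Ab1, 0.29 for H2-Eb1, 0.00 for Cd74, -0.02 for H2-Oa, -0.03 for H2-Ob and 1.43 for Ciita. With slide as a block and both control 3 arrays left out, a setting chosen after the data were seen, 0 of 9 genes passed in either genotype, where 5.97% of all genes rose in WT and 3.19% in Lcn2-/-. In that fit the differences remained positive for 9 of 9 genes in Lcn2-/- (median 1.02, range 0.69 to 2.15) and for 7 of 9 in WT (median 0.42, range -0.03 to 1.43). With slide as a block and all 16 arrays, 3 of 9 differences were positive in each genotype, with medians of -0.47 in WT and -0.19 in Lcn2-/-. On slide 1 both of these fits rest on 1 CCl4 liver, WT CCl4 1. No Lcn2-/- CCl4 array lay on slide 1, so the slide term in the Lcn2-/- differences came from WT CCl4 livers alone.

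**Figure D3:**
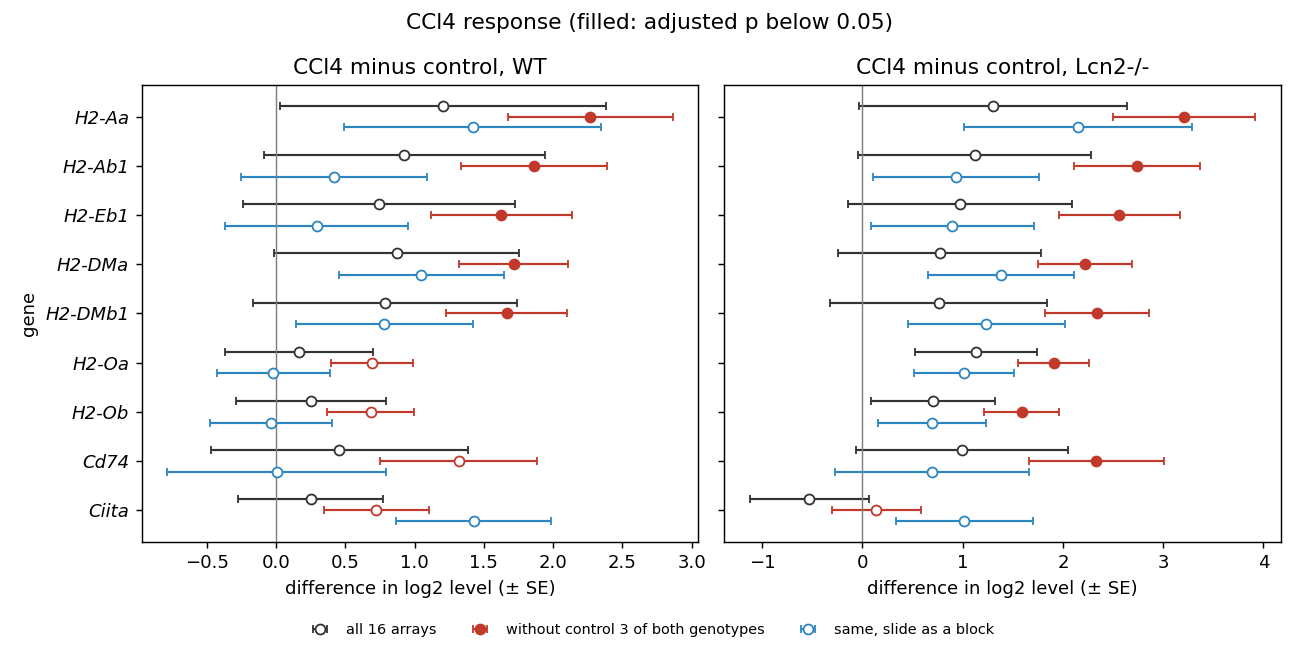
CCl4 minus control (difference in log2 level ± SE from limma) for each gene in WT and Lcn2-/-, with all arrays, without control 3 of both genotypes, and without them with slide as a block; filled points had an adjusted p below 0.05. Leaving out 2 controls moves H2-Aa from 1.21 to 2.27 in WT and from 1.30 to 3.21 in Lcn2-/-, and the block brings it to 1.42 and 2.15.

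The second question was whether loss of lipocalin 2 changed the class II genes under CCl4. In the fit of all arrays 0 of 9 genes passed, where 0.65% of all genes did, and 0 of 9 had an unadjusted p under 0.05. The Lcn2-/- mean was below the WT mean for 9 of 9 genes, with a median difference of -0.64 and a range of -1.05 to -0.06, against -0.01 over all genes. Without WT CCl4 2 the median was -0.34, with 2 of 9 genes higher in Lcn2-/-. The genotypes overlapped for 9 of 9 genes, where 5.66% of all genes had no overlap. H2-DMb1 differed by -0.82 ± 0.95 (SE), with a 95% interval of -2.86 to 1.22, and Ciita by -1.05 ± 0.52 (SE), with an interval of -2.17 to 0.07. Their limma adjusted p-values were 0.742 and 0.398. H2-Oa was nearest to equal, at -0.06 with an interval of -1.21 to 1.08, which leaves room for a 2-fold change either way.

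Within slide 2, where 4 WT and 4 Lcn2-/- CCl4 livers lay side by side, the Lcn2-/- mean was again lower for 9 of 9 genes, with a median of -0.87. Of these, 7 of 9 had an unadjusted p under 0.05 and 0 passed after adjustment (lowest limma adjusted p 0.252), where 8.3% of all genes were lower at that unadjusted p. With slide and column as a block, also chosen after the data were seen, 8 of 9 genes had an unadjusted p under 0.05 and 0 of 9 passed, with limma adjusted p-values from 0.055 for H2-DMa to 0.43 for H2-Oa. In that fit 0.785% of all genes were called lower and 13.6% were lower at an unadjusted p under 0.05. The 9 genes moved together from liver to liver, so these counts of genes are not counts of separate observations. WT arrays lay in 1 row of each slide and Lcn2-/- arrays in the other, except WT CCl4 1, so position in the slide and genotype cannot be told apart within slide 2. Leaving out the control 3 arrays, which do not enter the difference but set part of the shared spread, gave 0 of 9 calls against 1.05% of all genes, with 2 of 9 genes (H2-Ob and Ciita) at an unadjusted p under 0.05.

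In the controls no difference between the genotypes passed. The Lcn2-/- mean lay below the WT mean for 9 of 9 genes (median -0.81, range -1.09 to -0.27, against -0.01 over all genes), and 0 of 9 passed, where 0.518% of all genes did, with 0 of 9 at an unadjusted p under 0.05. The size of this difference of means, and at times its sign, changed when single livers were left out. Without WT control 3 the median was 0.08 and 6 of 9 genes were higher in Lcn2-/-, without Lcn2-/- control 1 or 2 it was -0.09 and -0.03 with 3 and 4 of 9 higher, and without Lcn2-/- control 3 it was -2.26 with 8 of 9 at an unadjusted p under 0.05. Without WT control 1 or 2 it was -1.26 and -1.24. Control n of both genotypes shared a slide column, and each omission above took 1 liver out of such a pair. All WT controls lay in 1 row of slide 1 and all Lcn2-/- controls in the other. Row and genotype therefore cannot be told apart in the controls. The Lcn2-/- liver was lower than the WT liver of the same number for 9 of 9 genes at each of the 3 numbers, where 24.4% of all genes were lower at all 3. The 9 genes moved together from liver to liver, so counts of genes here are not counts of separate observations. The gap was -0.75, -0.64 and -0.13 for H2-Aa, -0.90, -1.18 and -0.38 for H2-Ab1, and -0.71, -1.36 and -0.81 for Cd74 at numbers 1, 2 and 3. For H2-Oa and H2-Ob at numbers 1 and 2 and for Ciita at number 1 the Lcn2-/- spot was not well above background, so the size of those gaps is not given. With slide and column as a block 8 of 9 genes had an unadjusted p under 0.05 and 0 of 9 passed, with limma adjusted p-values from 0.085 for H2-Oa to 0.47 for Ciita. In that fit 0.518% of all genes were called lower and 9.61% were lower at an unadjusted p under 0.05. Without the control 3 arrays the differences were -1.60 to -0.47, and 0 of 9 passed against 0.621% of all genes, with 6 of 9 at an unadjusted p under 0.05, among them H2-Oa and H2-Ob, whose Lcn2-/- controls were then not above background.

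**Figure D4:**
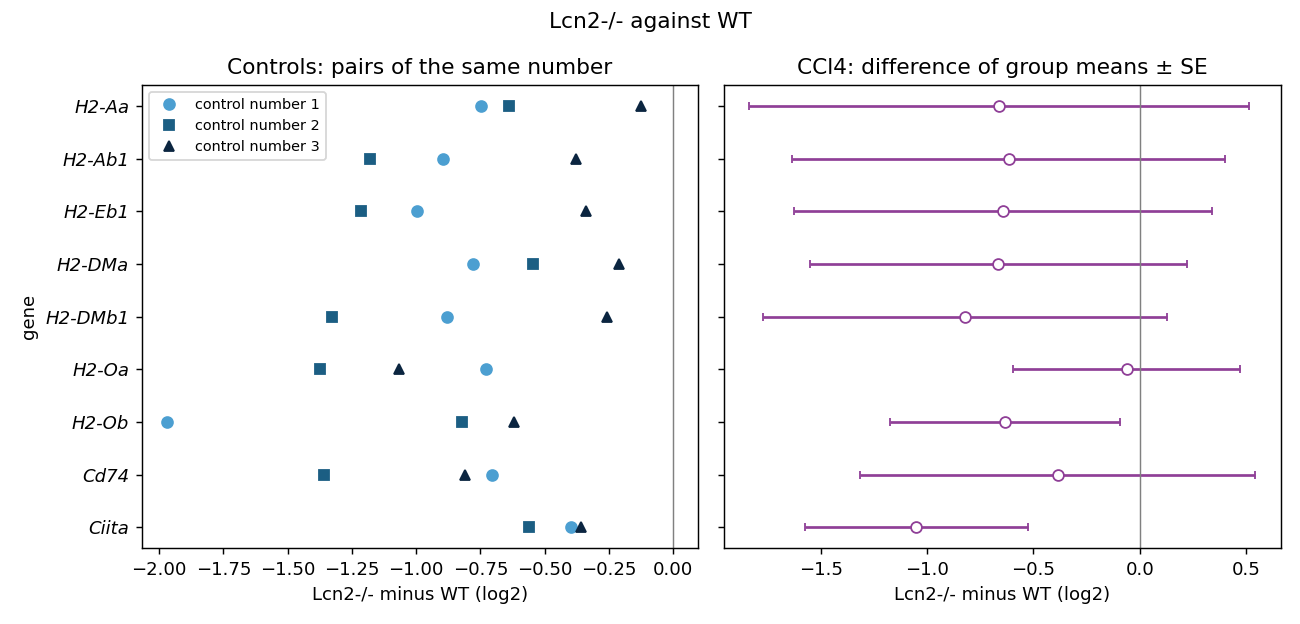
Lcn2-/- minus WT (log2) for each gene: left, pairs of controls with the same number; right, difference of CCl4 group means ± SE from limma. All 27 control pairs lie below 0, 5 of them (H2-Oa, H2-Ob and Ciita) with an Lcn2-/- spot not well above background, and under CCl4 all 9 means lie below 0 with 0 of 9 passing the threshold. The genes moved together from liver to liver, and the 27 values come from 3 pairs of livers.

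The difference between the responses to CCl4, taken as Lcn2-/- less WT and tested as an interaction, was not called for any of the 9 genes (limma adjusted p 1.00 for each), where 0.0535% of all genes were called. Its values ran from -0.78 for Ciita to 0.97 for H2-Oa, and the 95% interval for H2-Aa was -3.72 to 3.91. Without the control 3 arrays they ran from -0.59 to 1.22, and 0 of 9 were called against 0.0658% of all genes, with H2-Oa at an unadjusted p under 0.05, a value set against dim Lcn2-/- controls. Intervals this wide do not show that both genotypes responded alike.

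The enzymes that prepare antigen and the invariant chain for class II molecules differed among themselves. Of 10 listed, 1 rose with CCl4 in each genotype, the lysosomal protease gene Ctsd, by 1.06 in WT and 0.92 in Lcn2-/- (limma adjusted p 7.91e-05 and 0.00102), where 16.7% and 12.2% of all genes passed in either direction. Over the list the median difference was 0.37 in both genotypes. Without the control 3 arrays 6 of 10 rose in each genotype, against 11.3% and 8.53% of all genes: Ctss, the protease that trims the invariant chain (1.87 and 1.83), Ctsd, Marchf1, which ubiquitinates class II molecules (0.96 and 1.16), Ifi30, the lysosomal thiol reductase (0.80 and 0.97), Lgmn (0.77 and 0.68) and Ctsb (0.37 and 0.45). Ctss, Marchf1 and Ifi30 were the 3 of 10 that were also more than 1 log2 unit higher on both control 3 arrays, as 4.24% of all genes were, at 1.95 and 2.15, 1.94 and 1.75, and 1.48 and 1.66.

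The factors that bind the X and Y boxes did not pass. Of 7 listed genes (Rfx5, Rfxap, Rfxank, Nfya, Nfyb, Nfyc and Creb1), 0 passed in any comparison with all arrays or without the control 3 arrays. With all arrays 16.7% of all genes passed for the response in WT, 12.2% in Lcn2-/- and under 1% for the other comparisons. Without the control 3 arrays the shares were 22.3% and 15.1% for the responses and at most 1.05% for the others. A list of 7 with 0 calls is therefore near the background. Their median response was 0.16 in WT and 0.23 in Lcn2-/-, and none was over 1 log2 unit higher on both control 3 arrays (median shift -0.18 and -0.15). Nfya differed by 0.37 and Rfxank by -0.32 in WT. Rfx5, a subunit of the X box complex, differed by -0.96 between Lcn2-/- and WT under CCl4 and by -0.66 in controls (limma adjusted p 0.131 and 0.556), but it was well above background on 2 of 4 Lcn2-/- CCl4 and 2 of 3 Lcn2-/- control arrays, so these sizes are not exact.

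The interferon gamma path was split on the control 3 arrays, and no gene of it passed. Ifng stood at 3.61, 6.52, 10.32 and 7.46 in WT controls and at 2.96, 2.95 and 7.82 in Lcn2-/- controls. It stood at 3.82, 8.30, 10.27, 7.22 and 7.76 in WT CCl4 and at 4.69, 6.0, 4.19 and 3.52 in Lcn2-/- CCl4, and its spot was well above background on 3 of 4 WT and 1 of 3 Lcn2-/- controls and on 4 of 5 WT and 1 of 4 Lcn2-/- CCl4 livers. WT control 3 and Lcn2-/- control 3 were the highest control of their genotype. Of 8 listed genes 0 passed in any comparison, also without the control 3 arrays, which for so short a list is near the share over all genes (16.7% for the response in WT and 12.2% in Lcn2-/- with all arrays, and 22.3% and 15.1% without those 2). On both control 3 arrays 4 of 8 were over 1 log2 unit higher, as 4.24% of all genes were. Those 4 included Ifng (4.45 and 4.87), Socs1 (3.42 and 1.97) and Irf1 (1.64 and 1.30), while Ifngr1, Ifngr2, Jak1 and Jak2 stood at -0.12 to 0.45. The Ifng means differed by -2.87 between Lcn2-/- and WT under CCl4 and by -2.40 in controls (limma adjusted p 0.396 and 0.864). Most Lcn2-/- spots of Ifng were not above background, so these differences and the shift of 4.87 are set largely against background and are not exact. Socs1, a feedback inhibitor, differed by -1.32 under CCl4.

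Of the MHC class I genes several were high on the same control livers. Of 14 listed, where 16.7% and 12.2% of all genes passed in either direction, 1 rose with CCl4 in each genotype, the class Ib gene H2-Q1 (2.03 and 2.08, limma adjusted p 0.000157 and 0.000619), a gene that was lower on both control 3 arrays (-0.38 and -0.84). On both control 3 arrays 7 of 14 were over 1 log2 unit higher, as 4.24% of all genes were. Those 7 included Tap1 (1.82 and 3.07), Psmb9 (1.66 and 2.30), Psmb8 (1.68 and 2.01) and Nlrc5, the class I transactivator (1.35 and 1.48). Without those arrays H2-T23 also rose in WT, by 0.37 (limma adjusted p 0.0464), and Tap1 differed with CCl4 by 0.70 in WT and 0.36 in Lcn2-/-, with limma adjusted p-values of 0.225 and 0.656. Between the genotypes 0 of 14 passed, near the background of 0.65% of all genes under CCl4 and 0.518% in controls. Tap1 stood at -0.97 and Psmb9 at -0.58 under CCl4. Of 6 costimulation genes 0 passed with all arrays, where 16.7% and 12.2% of all genes passed for the responses. For so short a list that count is near the background. Cd40 differed by 0.85 in WT and 1.21 in Lcn2-/-, and without the control 3 arrays it rose by 1.72 in WT and at least 2.79-fold in Lcn2-/-, where neither remaining control was well above background (limma adjusted p 0.0115 and 0.0149). Icosl then rose by 1.16 in WT and differed by 0.90 in Lcn2-/- (limma adjusted p 0.0223 and 0.148). In that setting 2 of 6 costimulation genes rose in WT and 1 of 6 in Lcn2-/-, against 11.3% and 8.53% of all genes. On the control 3 arrays Cd274 (3.27 and 3.42), Cd40 (3.47 and 2.61, the latter set against dim controls) and Cd86 (1.38 and 1.50) stood high, and the genotype differences of Cd274 and Cd40 under CCl4 were -1.33 and -1.2 (limma adjusted p 0.501 for both).

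**Figure D5:**
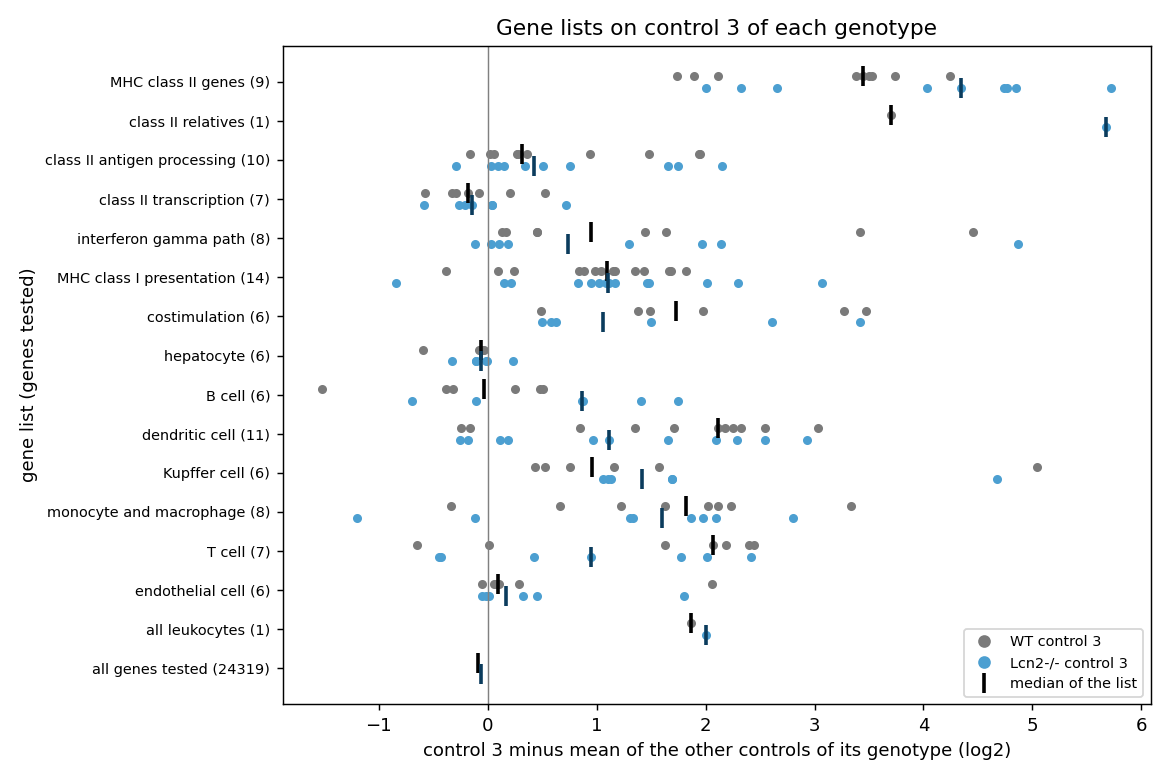
Control 3 minus the mean of the other controls of its genotype (log2) for the genes of each list (points) with list medians (bars), for WT and Lcn2-/-. The 9 class II genes have medians of 3.44 and 4.34, the hepatocyte list -0.06 in both, and all genes tested -0.09 and -0.06.

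Markers of the cells that could carry class II were high on the control 3 arrays for some lists and not for others, and their part in the class II values was not tested. Ptprc, the marker of all leukocytes, was 1.87 and 2.00 log2 units higher on the control 3 arrays, and its signal ranged from 314 to 1795 in WT controls, 224 to 1054 in Lcn2-/- controls, 802 to 1895 in WT CCl4 and 652 to 989 in Lcn2-/- CCl4. For monocytes and macrophages 6 of 8 markers were over 1 log2 unit higher on both control 3 arrays, as 4.24% of all genes were. Of the others, Itgam was lower on both (-0.34 and -1.20) and Cx3cr1 stood at 0.66 and -0.12. The summed signal was 46103 to 121072, 38296 to 99522, 60247 to 105816 and 56737 to 65350 in the same order of groups. It is carried largely by the bright Csf1r probe (group means 15.50 to 15.70). For dendritic cells 6 of 11 were over 1 log2 unit higher on both, among them Itgax, Flt3, Clec9a, Batf3 and Irf8. The summed signal of that list was 107138 to 124672, 121134 to 136629, 81466 to 136031 and 78918 to 109225. That sum was not highest on control 3 in either control group (115160 in WT and 121134 in Lcn2-/-). It is carried by the bright Siglech probe (group means 16.30 to 16.91). The mean log2 level over the 11 markers was highest on control 3 in both control groups, at 10.07 against 8.26 to 8.69 in WT and at 9.31 against 7.78 and 8.39 in Lcn2-/-. For Kupffer cells 3 of 6 were, led by Marco (5.04 and 4.67), with sums of 67582 to 217780, 80649 to 239557, 52808 to 72765 and 78597 to 88813. For T cells it was 3 of 7, with sums of 33753 to 57007, 41197 to 54023, 12400 to 30508 and 18292 to 30827. The T cell sum was lowest on control 3 in both control groups (33753 in WT and 41197 in Lcn2-/-). It is carried by the bright Cd4 probe (group means 14.06 to 15.47), which stood at -0.65 and -0.43 on the control 3 arrays. The median shift of the 7 markers there was 2.07 and 0.95. For B cells it was 0 of 6, with a median shift of -0.03 on WT control 3 and 0.87 on Lcn2-/- control 3, Ms4a1 at 0.51 and 1.41 and Cd22 at -0.32 and -0.11, and with sums of 2913 to 3244, 2525 to 3332, 2119 to 3095 and 2124 to 2898. The hepatocyte and endothelial lists had 0 of 6 and 1 of 6 (Lyve1), with sums from 1912470 to 2286050 and from 55856 to 89442 over all arrays. Cd79a, Blk and Xcr1 were not tested because their probes were too dim, and Ly6c2 had no probe of that name.

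With CCl4 these markers moved in several directions. Itgax, the integrin CD11c, rose by 4.08 in WT and 4.69 in Lcn2-/- (limma adjusted p 0.00175 and 0.00248). Its level was 7.95 to 11.29 in WT controls and 12.14 to 13.57 in WT CCl4, and 5.93 to 9.02 and 10.84 to 13.13 in the Lcn2-/- groups, with no overlap within a genotype. Lyz2 rose by 2.46 and 2.69 and Cd68 by 2.12 and 1.84, and Cx3cr1 rose in Lcn2-/- by 1.14. In Lcn2-/- the dendritic cell marker Cd209a rose by 1.49 and Siglech fell by 0.62. Of 8 monocyte and macrophage markers 2 rose in WT and 3 in Lcn2-/-. Of 11 dendritic cell markers 1 rose in WT, and 2 rose and 1 fell in Lcn2-/-. Over all genes 16.7% and 12.2% passed in either direction. Itgam did not pass, with Lcn2-/- means of 10.49 in controls and 9.63 under CCl4. Of the Kupffer cell markers Timd4 fell by 1.29 and Clec4f by 1.03 in WT. Of the T cell markers Cd4 fell by 1.13 in WT and by 1.2 in Lcn2-/-, and Cd3e fell by 0.88 in WT. Pax5 of the B cell list fell by 1.28 in WT, a size that is not exact because its spot was well above background on 1 of 5 WT CCl4 arrays. Of the endothelial list Lyve1 rose by 1.52 and 1.92 and Stab2 fell by 0.43 in WT. Of the hepatocyte list 0 of 6 passed in any comparison, where 16.7% and 12.2% of all genes passed for the responses and 0.65% and 0.518% between the genotypes, with Cps1 at 0.11 and 0.39. Between the genotypes Cx3cr1 alone of all these markers passed, lower in Lcn2-/- by -1.64 under CCl4 and by -2.18 in controls (limma adjusted p 0.00337 and 0.000661), and it also passed without the control 3 arrays (-1.64 and -1.98). Without the control 3 arrays 6 of 8 monocyte and macrophage markers and 5 of 11 dendritic cell markers rose in each genotype, against 11.3% and 8.53% of all genes, and Ptprc rose by 1.13 and 1.62. In the other direction, where 11% of all genes fell in WT and 6.61% in Lcn2-/-, 3 of 6 Kupffer cell markers fell in WT (Timd4, Clec4f and Vsig4) and 0 of 6 in Lcn2-/-, 2 of 7 T cell markers fell in WT (Cd4 and Cd3e) and 1 in Lcn2-/- (Cd4), and Siglech was the 1 of 11 dendritic cell markers that fell, in Lcn2-/-. Of the endothelial list Lyve1 rose in each genotype and Stab2 fell in WT. Of the B cell markers, 1 then rose in each genotype (Ms4a1, by 0.51 and 0.82) and 2 fell in WT (Cd22 by 0.53, and the dim Pax5).

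The genes whose liver-to-liver deviations were most like the mean of the 9 were ranked over all genes tested. LOC641240, a predicted class II beta chain, came first at r = 0.99 (Spearman rho 0.98), and its probe overlaps that of H2-Ab1, so it is not a separate measurement. It was followed by Aif1, a macrophage calcium-binding protein gene of the MHC region (r = 0.99, rho 0.95), the integrin gene Itgb7 (0.99, 0.96), the interferon-induced GTPase gene Gbp9 (0.99, 0.94), H2-Ea (0.98, 0.95), LOC434513 (0.98, 0.92), Serpina3g (0.98, 0.89), Sash3 (0.98, 0.92), Dram1 (0.98, 0.93) and Ly6a (0.98, 0.91). Leaving out the 2 livers farthest from the median, which were the control 3 livers, gave r of 0.94 to 0.99 for these 10 genes over 14 arrays. Their CCl4 differences in WT ran from -1.56 for Ly6a through 0.10 for Aif1 to 1.35 for Serpina3g. Over all genes the median r was -0.11, and 382 genes (1.57%) had an r over 0.9.

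Most of these genes lie together. The probes of 7 of the 9 fall within 221 kb of chromosome 17 on mm9, from 34232033 to 34453134, and Cd74 and Ciita lie on other chromosomes. Between and beside them lie genes that are no part of the class II path. Brd2, a bromodomain gene between H2-Oa and H2-DMa, was not raised on the control 3 arrays (-0.02 and -0.08) and differed with CCl4 by -0.08 and -0.16 without them. Psmb9, Tap1, Psmb8 and Tap2 lie between H2-DMb1 and H2-Ob. They were 0.99 to 1.82 log2 units higher on WT control 3 and 1.11 to 3.07 on Lcn2-/- control 3. Without those arrays 0 of 4 rose with CCl4, where 11.3% of all genes rose in WT and 8.53% in Lcn2-/-. For 4 genes that count is near the background. Of the class II genes on either side, H2-DMb1 was 3.5 and 4.74 higher on the 2 arrays, and H2-Ob was 1.74 higher on WT control 3.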

How the data were processed

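RNA of 16 livers was labelled with Cy3 and hybridised to Agilent SurePrint G3 mouse arrays. The deposited scanner files hold intensity values, which per the file headers come from Feature Extraction 10.7.3.1 with probe positions on mm9. The deposited value table holds log2 values that the authors quantile normalized, and it was used as an alternative: 99.9% of its values lie within 0.05 of quantile-normalized log2 of median signal minus background. Here log2 processed intensity was quantile normalized over 16 arrays without control spots (59305 gene spots, 55681 probes, 121 probes dropped as outliers on some array). Probes were kept if 3 or more arrays had them well above background, and the brightest stood for its gene name, giving 24319 genes. No spot was saturated. The fit used limma 3.58.1 in R 4.3.3 over 4 groups without covariates, after the study's methods, with Benjamini-Hochberg adjustment over all genes tested and a threshold of 0.05. On simulated arrays of these 24319 genes for the WT response, 52 of 100 genes changed by 1 log2 unit and 88 of 100 changed by 2 were called. Those genes were drawn at random from all genes tested, each with its own spread. The shares therefore do not tell how often such a change would be called in the class II genes. In the WT response the SE of those genes ran up to 1.18, for H2-Aa. A list is described by its count and its median, with no test of the list.

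The 9 genes and all lists were chosen with earlier results of these data known. The rule for named genes took all 9, per list and comparison up to 3 past the threshold with the greatest difference (up to 2 where none passed), the class II relatives, the defining cell type markers and the 10 most alike genes; other list genes were named after their values were seen. Array number limits the precision. Control numbers were taken as pairs because same-numbered controls deviated together (r = 0.23, 0.37 and 0.55 over genes), each over 0.1. Of the 4 CCl4 pairs 1 was (0.25) and the others lay at -0.22 to 0.03, so CCl4 numbers were not taken as pairs. The labels state no pairing, so this choice came from the data themselves. Under CCl4 the slide columns join other livers than the numbers do, and pairs by column were not checked in this way. Values of some list genes are not reported here.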

Additional observations from a re-analysis of the deposited data

How the results depend on the processing

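The count of class II genes past the threshold was 0 in the 5 comparisons with all arrays and stayed 0 with 75th percentile scaling, normexp background correction, the deposited value table, no filter on dim probes, the other H2-Ob probe, slide as a block, slide and column as a block, fits within a slide and fits of the compared groups alone. Without WT control 3 and Lcn2-/- control 3 together it was 5 for the CCl4 response in WT and 8 in Lcn2-/-. With array weights it was 2 for the response in Lcn2-/- (H2-Oa and H2-Ob) and 1 for Lcn2-/- against WT in controls (H2-Ob, lower). The H2-Ob spot was well above background on 1 of 3 Lcn2-/- controls, so the size of that difference is not given. Array weights also moved the median of the 9 genes from 0.75 to 1.31 in the WT response. In the Lcn2-/- response it moved from 0.97 to 1.80. There 7 of 9 genes had an unadjusted p under 0.05 against 0 of 9 without weights, and 9888 of all genes against 6563. Leaving out each array in turn gave a count of 0 to 1 for the response in Lcn2-/- (H2-Oa without Lcn2-/- control 3). That count was 0 to 0 for the other comparisons. With the replicate number as a block, or paired, the count was 0 in every comparison, with lowest limma adjusted p-values of 0.502, 0.234, 0.284, 0.663 and 1.00 for the WT response, the Lcn2-/- response, genotype under CCl4, genotype in controls and the interaction. Sign changes were seen for 17 of 45 single-gene values with slide and column as a block, 16 with slide as a block and 10 or fewer in every other setting, none of them called before or after. Over all genes, 4061 and 2958 passed for the WT and the Lcn2-/- response, and 158, 126 and 13 for genotype under CCl4, genotype in controls and the interaction. With slide as a block the responses had 1295 and 426, with slide and column 1345 and 361, and with slide and without both control 3 arrays 2383 and 1130. Array weights gave 7015, 6983, 322 and 1256 for the first 4. The genotype count under CCl4 was 87 with the replicate block, 94 with those groups alone, 322 with slide and column, 255 without both control 3 arrays, 264 with slide besides and 72 to 102 without 1 of 5 CCl4 arrays (WT 2, 4 or 5, Lcn2-/- 1 or 3). The Lcn2-/- response had 1759 with those groups alone, 1686 and 1684 without Lcn2-/- control 1 or 2, and the WT response 2488 and 2561 without WT control 1 or 2 and 703 within slide 1. Without the filter 215 passed for genotype in controls. The interaction had 7 with normexp, 3 with the deposited table or slide and column, 6 with the replicate block and 8 without Lcn2-/- CCl4 4. Scaling to the 75th percentile moved the median of all genes in the WT response from -0.03 to -0.16 and its split from 1959 higher and 2102 lower to 1579 and 3559, and in the Lcn2-/- response from -0.02 to -0.14 and from 1599 and 1359 to 1180 and 2073. The causes were not tested. Signal over background limits H2-Oa, H2-Ob and Ciita in Lcn2-/- controls.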
